A study of Mus musculus with 30 samples.

Results

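The 10 genes described here encode the cap-binding initiation factors of the eIF4 group and the repressors that act on them. They are Eif4e, Eif4ebp1, Eif4ebp2, Eif4g1, Eif4g2, Eif4g3, Eif4a1, Eif4a2, Eif4b and Eif4h. They were chosen by symbol, and all 10 were found among the 23993 genes of the deposited expression table. RNA had been sequenced from interneurons that were sorted for tdTomato out of the medial prefrontal cortex (mPFC) of C57BL/6 mice aged 6 to 12 weeks. All mice were heterozygous reporters: an Sst-Cre or a Pvalb-Cre driver switched on the Ai9 tdTomato allele, so a cell was tagged if its driver had been active at any time. The table held 24 libraries: 7 from nonstressed Sst females, 7 from nonstressed Sst males, 3 from Sst males after chronic unpredictable stress (CUS) for 14 days, and 7 from nonstressed Pvalb males. A further 6 labelled libraries (1 nonstressed Pvalb female, 3 Sst females and 2 Pvalb females after CUS) were not analysed here.

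Most eukaryotic mRNAs are translated after their 5′ cap has been bound by eIF4E, the cap-binding protein. eIF4E joins a scaffold, eIF4G, and an RNA helicase, eIF4A, to form the eIF4F complex, which unwinds the leader and recruits the small ribosomal subunit through eIF3. 4E-BPs are small repressors that compete with eIF4G for eIF4E, and the kinase complex mTORC1 releases this block by phosphorylating them. In neurons this step is studied for its part in synaptic plasticity. The values here are mRNA levels, so neither protein amount nor phosphorylation was measured.

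The libraries fell into a pair of title kinds, and this split touched the members. All female and Pvalb libraries and 4 male Sst controls had short numbered titles (such as SST3-M), while 3 male Sst controls (SS04031R, SST040241L and SST04241LL) and all 3 CUS libraries had long titles. Small nucleolar RNAs (snoRNAs) took 53.5% to 75.7% of the summed FPKM in the long-title libraries and 1.87% to 8.29% in the short-title ones. SST0-M and SST1-M held nearly the same values, as did PV0-M and PV2-M, so each of these pairs was averaged and counted as 1 sample, which left 22 samples. Microglia markers summed to 2677 to 9568 FPKM per library. Of the interneuron markers, Gad1 had a median of 0.512 FPKM and Pvalb was listed at 0 in 10 of 22 samples. Gad1 was thus near the 0.4 FPKM that the study took as expressed, while Sst had a median of 5.78 FPKM. These values pool Sst and Pvalb samples. On log2(FPKM + 1), Pvalb had a mean of 1.77 in the Pvalb samples and 0.37 in the short-title Sst samples. Xist, the X-inactivation RNA of females, reached 300.2 to 333 FPKM in 3 of the Pvalb libraries labelled male (PV1-M, PV4-M and PV5-M), so "Pvalb males" below means libraries labelled male. PV3-M and PV6-M held 6.64 and 5.12 FPKM of Xist, against 0 to 0.446 FPKM in all remaining libraries labelled male. High Xist below means a value above 10 FPKM, so PV3-M and PV6-M stayed in the fits without high-Xist samples. No read counts were used, so the depth behind each value is unknown, and nothing in the labels says whether libraries of a group came from separate animals, so that the p-values below measure the spread between these samples.

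All 10 members were expressed in every group, and their levels spanned more than an order of magnitude. Levels are in FPKM, which is scaled to gene length, as mean ± SD over the 22 samples. Eif4a2, a helicase, was highest at 118 ± 30.9 FPKM, above 97.4% of the 14566 expressed genes. Eif4g2 (88.3 ± 20.3), Eif4a1 (86.5 ± 41.6) and Eif4g3 (74.6 ± 11.1) followed and lay within 1 SD of each other. Eif4ebp2 (45.6 ± 29.6), Eif4g1 (40.3 ± 20.1), Eif4h (37.9 ± 5.76) and Eif4b (30.7 ± 4.07) formed the middle of the order, in which neighbours differed by less than the larger of their SDs, apart from Eif4h and Eif4b. Eif4e stood at 18.3 ± 12.3 FPKM, and Eif4ebp1 was lowest at 6.39 ± 6.04 FPKM, above 42.0% of expressed genes. The order was stable at its ends: Eif4a2 was the highest member in 17 of 22 samples and Eif4ebp1 the lowest in 21 of 22.

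**Figure D1:**
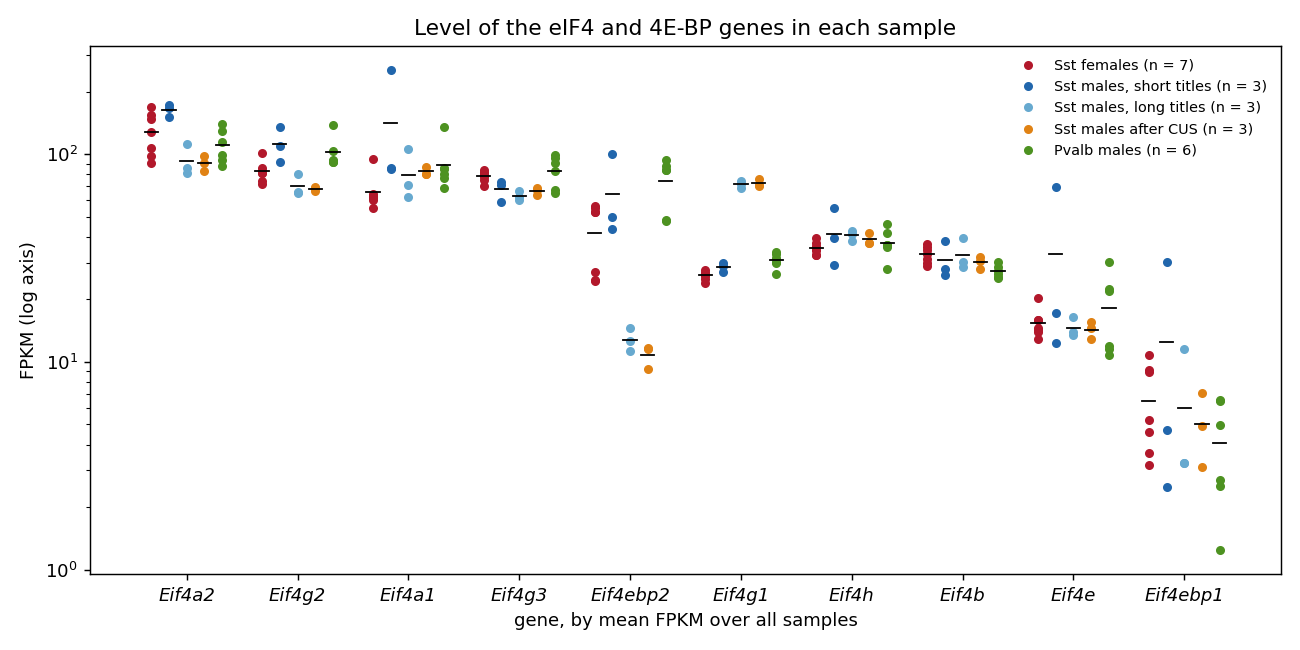
FPKM of each of the 10 genes on a log axis, ordered by mean level, with 1 point per sample and a black bar at each group's mean (22 samples in 5 groups). Eif4ebp2 sits at 9.20 to 14.5 FPKM in the 6 long-title samples (light blue and orange) and at 24.6 to 100.1 FPKM in the other 16, while Eif4g1 sits at 68.6 to 75.8 FPKM against 23.9 to 34.0 FPKM.

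Eif4e, whose product binds the cap, lies on mouse chromosome 3 (GRCm38.p6, chr3:138526191-138559696). In the 7 Sst females its level ran from 12.9 over a median of 14.5 to 20.2 FPKM. The short-title males gave 69.8 FPKM in the averaged SST0-M and SST1-M, 17.2 in SST3-M and 12.3 in SST4-M. A single sample thus stood far above the others, and the remaining males lay within or beside the female range. The long-title male controls gave 13.9, 13.5 and 16.4 FPKM, and the CUS males 15.5, 14.6 and 12.9 FPKM. The Pvalb samples ran from 10.7 over 16.9 to 30.2 FPKM, and the 3 with high Xist were the lowest of them (10.7 to 11.9 FPKM). Across groups the Eif4e levels overlapped.

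The 4E-BP genes differed from each other in level and in pattern. Eif4ebp1 (chr8:27260327-27275656) encodes the 4E-BP best known as an mTORC1 substrate, and Eif4ebp2 (chr10:61428491-61452790) the 4E-BP that is the prevalent form in brain. Eif4ebp2 exceeded Eif4ebp1 in every sample, with a log2 ratio of Eif4ebp1 to Eif4ebp2 of −2.53 ± 0.40 (SD) in Sst females, −2.84 ± 1.03 in short-title males and −3.97 ± 1.06 in Pvalb males, but of −1.17 ± 0.75 in long-title controls and −1.02 ± 0.35 after CUS. The gap between the paralogs was therefore narrower in the long-title samples.

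Eif4ebp2 was low in all 6 long-title samples. The long-title male controls gave 14.5, 11.3 and 12.6 FPKM and the CUS males 11.6, 9.20 and 11.7 FPKM. The short-title males gave 100.1 FPKM (SST0-M with SST1-M), 49.7 (SST3-M) and 43.7 (SST4-M). The title kinds thus did not overlap within male Sst controls, while the CUS males overlapped the long-title controls. Females ran from 24.6 over 52.7 to 56.5 FPKM and fell apart within their group: SST1-F, SST3-F and SST4-F held 24.6 to 27.2 FPKM and the other 4 held 52.7 to 56.5 FPKM. These 3 females also had the lowest summed microglia markers of the females (3612 to 3714 FPKM against 4702 to 6449), whose part in the level was not tested. Pvalb males ran from 47.6 over 84.2 to 93.7 FPKM, with PV3-M and PV6-M at 48.0 and 47.6 and the other 4 samples at 84.1 or above.

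Eif4ebp1 was low and uneven. It ran from 3.18 over 5.25 to 10.7 FPKM in females and from 1.24 over 3.83 to 6.56 FPKM in Pvalb males. The short-title males gave 30.4 FPKM in the averaged pair, with 4.69 and 2.51 FPKM for SST3-M and SST4-M, so the same sample as for Eif4e was far above the rest. The long-title controls gave 11.5 FPKM in SS04031R and 3.27 in both others, and the CUS males 7.09, 3.11 and 4.91 FPKM. Every group overlapped every other.

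The 3 scaffold genes also kept separate patterns. Eif4g1 (chr16:20672720-20692883) encodes the main eIF4G scaffold, Eif4g3 (chr4:137991779-138207086) its close paralog eIF4GII, and Eif4g2 (chr7:111067985-111083030) DAP5, which lacks the eIF4E-binding part. Eif4g1 was even within groups: females ran from 23.9 over 26.5 to 27.6 FPKM and Pvalb males from 26.5 over 30.9 to 34.0. The short-title males gave 30.02, 27.0 and 28.9 FPKM. The long-title controls gave 74.5, 68.6 and 71.4 FPKM and the CUS males 70.6, 75.8 and 71.0. All 6 long-title samples were above all 16 short-title samples, and the samples within each title kind stood close together.

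Eif4g3 and Eif4g2 moved less. Eif4g3 lay between 58.9 and 98.5 FPKM in all samples, with group means of 78.3 ± 4.61 FPKM in females, 67.9 ± 7.88 in short-title males, 62.9 ± 3.08 in long-title controls, 66.6 ± 2.49 after CUS and 83.3 ± 14.3 in Pvalb males. Eif4g2 gave 136, 109 and 91.6 FPKM in the short-title males, 79.8, 65.9 and 65.0 in the long-title controls and 69.6, 66.3 and 68.6 after CUS. Females ran from 71.6 over 81.6 to 102 FPKM and Pvalb males from 91.6 over 93.5 to 139. Eif4g2 was hence lowest in long-title samples too, although it overlapped the females.

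Since a ratio of 2 genes within 1 sample depends little on that sample's scaling, the members were also set against each other. The log2 ratio of Eif4g1 to Eif4g3 was −1.55 ± 0.09 in females, −1.21 ± 0.11 in short-title males and −1.39 ± 0.34 in Pvalb males, so Eif4g3 prevailed. It was 0.18 ± 0.12 in long-title controls and 0.12 ± 0.04 after CUS, where both scaffolds stood about level. The log2 ratio of Eif4g2 to Eif4g1 was 1.62 ± 0.17, 1.92 ± 0.26 and 1.68 ± 0.34 in the same 3 short-title groups and −0.03 ± 0.12 and −0.09 ± 0.09 in the long-title ones. The log2 ratio of Eif4ebp2 to Eif4e was above 0 in all 16 short-title samples, at 1.31 ± 0.44 in females, 1.25 ± 0.65 in males and 2.03 ± 0.90 in Pvalb males. It averaged −0.18 ± 0.21 in long-title controls, with 1 of 3 above 0, and −0.38 ± 0.24 after CUS. The ratio of Eif4ebp1 to Eif4e was below 0 in all 22 samples and did not part the title kinds. These ratios are descriptions, and no test was made on them.

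**Figure D2:**
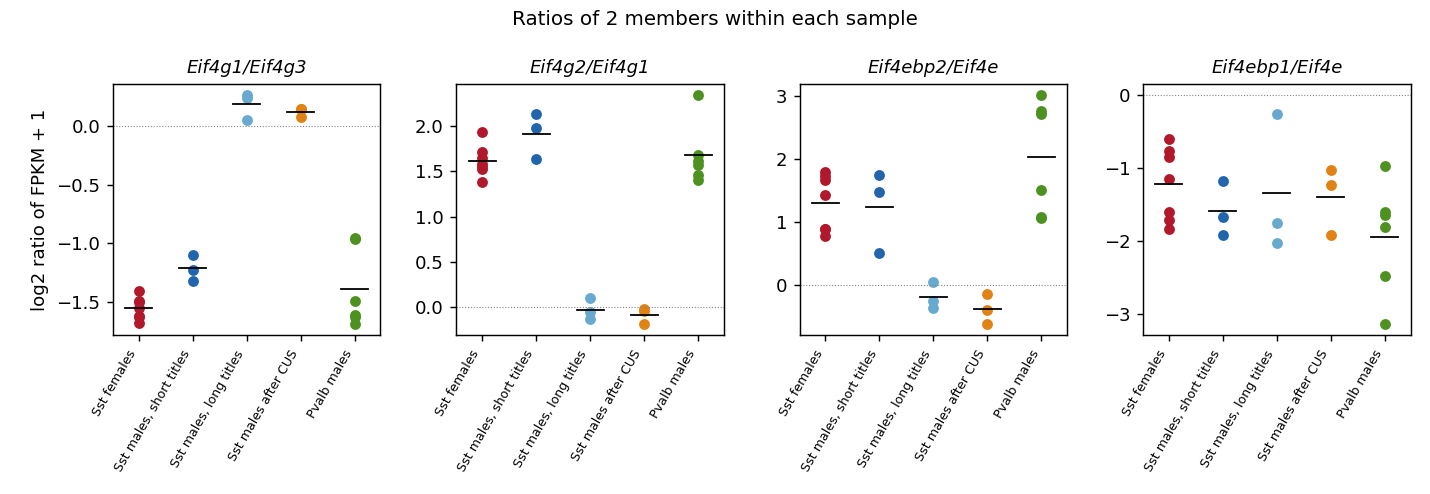
Log2 ratio of FPKM + 1 between 2 members in each sample, by group, with a bar at the mean and a dotted line at 0. Eif4g1/Eif4g3 and Eif4g2/Eif4g1 part the long-title samples (light blue and orange) from the rest, Eif4ebp2/Eif4e lies above 0 in all short-title samples, and Eif4ebp1/Eif4e lies below 0 everywhere.

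The helicase genes were abundant in every group. Eif4a1 (chr11:69666936-69672423) and Eif4a2 (chr16:23107468-23114132) encode close paralogs of the DEAD-box helicase eIF4A, of which eIF4A2 is enriched in brain, so reads that fit both could have been split between them. Eif4a1 gave 254 FPKM in the averaged SST0-M and SST1-M, 85.5 in SST3-M and 85.1 in SST4-M. Females ran from 54.8 over 62.4 to 95.0 FPKM, long-title controls gave 106, 62.2 and 71.3, CUS males 80.7, 80.6 and 86.5, and Pvalb males ran from 68.4 over 82.6 to 135. The highest Eif4a1 values therefore came from the averaged Sst pair and, next, from the averaged Pvalb pair. The same 2 samples ranked first and second for Eif4e, and second and first for Eif4g2. The Sst pair had 12124 and 12125 genes above 0.4 FPKM where all other libraries had 13295 to 14255, and its part in these values was not tested.

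Eif4a2 ran from 91.0 over 128 to 169 FPKM in females, with the highest 3 values in SST1-F, SST3-F and SST4-F (147 to 169 FPKM), the females that were lowest in Eif4ebp2. The short-title males gave 173, 150 and 167 FPKM, the long-title controls 112, 85.6 and 81.5, and the CUS males 97.4, 82.5 and 90.8. The title kinds of male controls did not overlap. Snora81, a snoRNA gene that lies inside Eif4a2 (chr16:23110770-23110933), stood at 1235 to 1531 FPKM in long-title controls and 564 to 1087 after CUS, against 63.7 to 248 FPKM in short-title males and 71.2 to 241 in females. Between the title kinds of male controls, the host gene was lower where the snoRNA was higher. Pvalb males held Eif4a2 at 87.4 to 139 FPKM, overlapping the long-title samples, with Snora81 at 112 to 455 FPKM. A relation between the host gene and the snoRNA was not tested. Snord2 (in Eif4a2), Snord66 (in Eif4g1), Mir1956 (in Eif4e) and Mir6399 (in Eif4g3) are listed at 0 in all libraries.

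The helicase cofactors were among the more even members. Eif4b (chr15:102073773-102097173) and Eif4h (chr5:134619872-134639409) encode RNA-binding proteins that stimulate eIF4A. Eif4b lay between 25.3 and 39.4 FPKM and Eif4h between 28.0 and 55.2 FPKM over all 22 samples. The highest Eif4b values were 39.4 FPKM in SS04031R and 38.2 in SST3-M. These libraries had the highest summed microglia markers of their title kind (7370 and 9568 FPKM). The Pvalb libraries PV5-M, PV4-M and PV1-M had sums of 9551, 9347 and 9111 FPKM and held Eif4b at 26.6, 28.6 and 25.3 FPKM. The part of these markers was not tested.

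**Figure D3:**
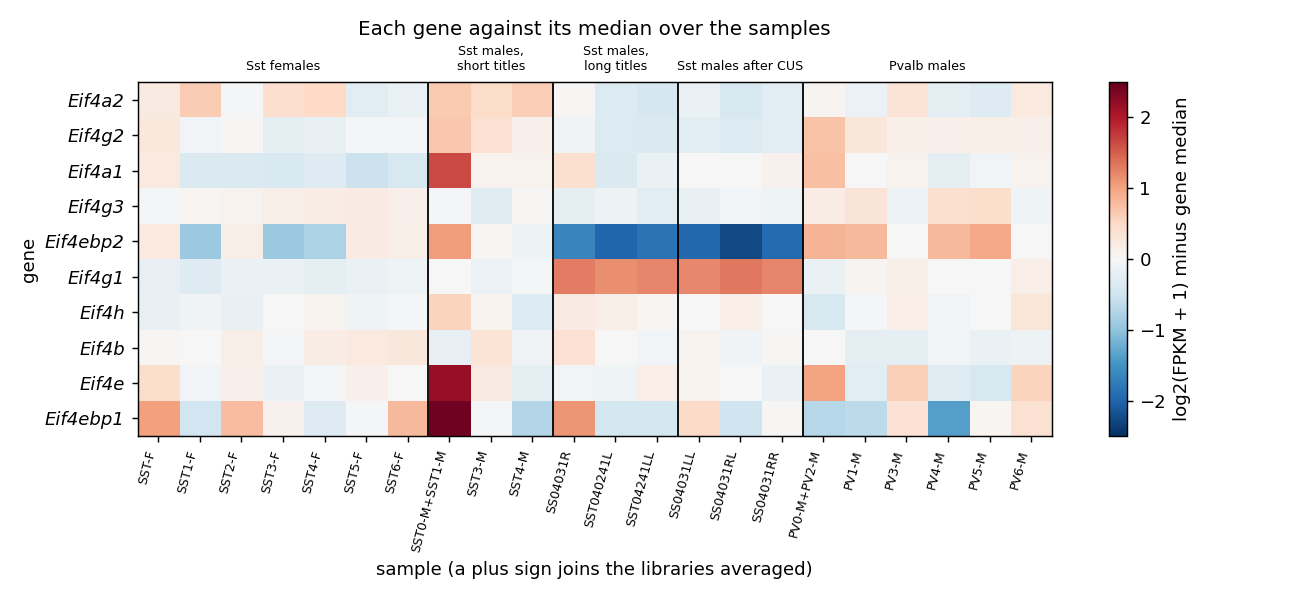
Difference of log2(FPKM + 1) from each gene's median over the 22 samples, with genes as rows and samples as columns grouped by condition and title kind (red above, blue below the median). The 6 long-title samples are red for Eif4g1 and blue for Eif4ebp2, and the averaged SST0-M and SST1-M are red for Eif4e, Eif4ebp1 and Eif4a1.

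The start regions of the members on which the differences below turn are shown next, to give the sequence context of Eif4e, Eif4g1 and Eif4ebp2. Each is the 250 bases before a RefSeq start site (GRCm38.p6), 5′ to 3′ on the gene's strand, with the E-box CACGTG, the motif bound by Myc and USF proteins, in capitals.
Eif4e (chr3:138527018-138527267, plus strand): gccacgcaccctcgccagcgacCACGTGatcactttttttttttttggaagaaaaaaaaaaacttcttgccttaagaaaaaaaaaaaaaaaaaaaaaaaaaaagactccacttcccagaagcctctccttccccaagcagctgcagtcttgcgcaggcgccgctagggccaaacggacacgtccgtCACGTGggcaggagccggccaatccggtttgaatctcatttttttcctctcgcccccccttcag
Eif4g1 (chr16:20672477-20672726, plus strand): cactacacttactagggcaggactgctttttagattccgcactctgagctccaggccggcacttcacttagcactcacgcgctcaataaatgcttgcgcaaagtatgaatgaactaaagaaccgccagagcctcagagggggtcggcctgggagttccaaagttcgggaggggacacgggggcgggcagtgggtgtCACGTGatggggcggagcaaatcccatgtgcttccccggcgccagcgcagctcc
Eif4ebp2 (chr10:61452670-61452919, minus strand): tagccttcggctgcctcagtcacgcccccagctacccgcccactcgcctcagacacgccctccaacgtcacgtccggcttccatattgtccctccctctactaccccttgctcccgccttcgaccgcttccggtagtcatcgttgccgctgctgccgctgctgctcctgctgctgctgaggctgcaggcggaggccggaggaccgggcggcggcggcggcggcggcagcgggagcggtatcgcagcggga

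The E-box reads the same on both strands. It starts 228 and 64 bases before this Eif4e start and 54 bases before the Eif4g1 start, and its letters are not in the Eif4ebp2 window. The 8 members with an entry had 10 windows, of which 4 held it (1 each of Eif4e, Eif4g1, Eif4a1 and Eif4h), against 6.02% of 32851 promoter windows. The other Eif4e window (chr3:138525941-138526190), which ends where the gene coordinates above begin, did not hold it. The GC box GGGCGG, searched on both strands, was in 6 of the 10 windows and in 32.7% of all windows, and CCAAT in 2 (Eif4e and Eif4a1) and 33.8%. TATAAA (12.4% of windows) and TGACGTCA (1.55%) were in none of them. Eif4g1 and Eif4ebp2, whose levels parted the title kinds in opposite directions, differed in the E-box and shared the GC box. The other members with an E-box did not pass between the title kinds of male controls. Their log2 fold changes, long over short titles, were −0.73 for Eif4e, −0.65 for Eif4a1 and 0.03 for Eif4h. A match is a description of letters and was not tested against the expression values.

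Male Sst controls with long titles were compared with those with short titles first, because this split enters every comparison that crosses it. Eif4ebp2 was lower and Eif4g1 higher in the long-title samples, and the other 8 members did not pass the test. A gene was called when its Benjamini-Hochberg adjusted p in limma, over all genes tested on log2(FPKM + 1), was below 0.05. That rule called 2 of 10 members, beside 4.11% of the 14230 genes tested. Eif4ebp2 was 4.45-fold lower (log2 fold change −2.16, SE 0.36, adjusted p = 0.0249, 3 against 3 samples). Eif4g1 was 2.45-fold higher (log2 fold change 1.29, SE 0.24, adjusted p = 0.0302). The values did not overlap for these 2 members nor for Eif4a2 (−0.82, SE 0.27, adjusted p = 0.131) and Eif4g2 (−0.66, SE 0.28, adjusted p = 0.208), so for 4 of 10, where 33.5% of all genes tested did not overlap. The median member lay at −0.57, against −0.00 over all genes tested. Eif4e (−0.73, SE 0.59) and Eif4ebp1 (−0.49, SE 0.84) had the widest errors, and leaving out the averaged SST0-M and SST1-M brought them to 0.00 and 0.45.

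Both calls were lost in most fits that left out 1 of the 6 samples, and those fits called fewer genes in all. Without the averaged pair Eif4ebp2 still passed (−1.79, adjusted p = 0.00589), as did Eif4g1 (1.33, adjusted p = 0.0139), beside 13.7% of all genes. Leaving out SST3-M, SST4-M, SS04031R, SST040241L or SST04241LL kept the sizes (−2.38 to −2.07 and 1.25 to 1.32) but raised the adjusted p to between 0.0532 and 0.123 for Eif4ebp2 and between 0.0698 and 0.168 for Eif4g1. These fits called 54 to 149 genes, where the main fit called 585, so the loss of calls is not particular to the members. When the 3 long-title controls were set against the 10 short-title Sst controls of both sexes, an alternative chosen after seeing the data, the differences were −1.73 (adjusted p = 0.00187) and 1.38 (adjusted p = 4.1e-06), beside 26.2% of all genes called. The title kinds also differed in the snoRNA share of the libraries given above, whose part in these differences was not tested.

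Of 51 other initiation genes, 4 (7.84%) passed the test between the title kinds, beside 4.11% of all genes. Of 23 cap-binding partners and regulators, 1 rose and 0 fell: Gigyf1, a partner of the cap-binding repressor 4EHP, was at 21.9 to 26.8 FPKM in long-title controls and 3.31 to 5.75 in short-title males (2.31, adjusted p = 0.0114). Of 14 eIF3 subunits 1 rose and 0 fell, Eif3b, which encodes a core subunit (37.0 to 42.1 against 3.11 to 9.65 FPKM, 2.44, adjusted p = 0.0234). Of 7 start-codon and joining factors 0 rose and 2 fell: Eif5, the GTPase activator for eIF2 (31.9 to 40.2 against 101 to 123 FPKM, −1.57, adjusted p = 0.0235), and Eif1, which guards start-codon choice (52.7 to 74.3 against 146 to 245 FPKM, −1.53, adjusted p = 0.0423). None of 7 mTORC1 genes passed, the lowest adjusted p being 0.0780. The CUS males held like values to the long-title controls, at 23.1 to 24.3 FPKM for Gigyf1, 32.8 to 38.2 for Eif3b, 35.2 to 42.8 for Eif5 and 71.5 to 79.9 for Eif1. With 1 sample left out, the 4 genes stayed past the threshold in 2 of 6 fits for Gigyf1 and in 1 of 6 for each of the others. Those fits called 54 to 1962 genes in all. Without a filter on low values Eif1 no longer passed (adjusted p = 0.0584).

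CUS was compared with control in male Sst samples of the long-title kind, the contrast that asks whether these factors changed with stress. No member passed the test, and the groups overlapped for all 10. The genes called were 0.00705% of the 14186 tested (1 gene, and 956 at an unadjusted p below 0.05), and 18.7% of genes had groups that did not overlap. Eif4ebp2 had the lowest adjusted p of the members, at 10.8 ± 1.40 FPKM after CUS and 12.8 ± 1.60 in controls (log2 fold change −0.22, SE 0.16, adjusted p = 0.667, 95% interval −0.60 to 0.15). Eif4g1 was at 72.5 ± 2.90 and 71.5 ± 2.98 FPKM (0.02, interval −0.29 to 0.33), and Eif4e at 14.3 ± 1.31 and 14.6 ± 1.60 FPKM (−0.03, interval −0.36 to 0.31). Eif4ebp1 had the widest interval, from −1.18 to 1.04, so changes within that range were not excluded with 3 samples a group. The intervals are not limits of detection, since a call needed an adjusted p below 0.05 over the 14186 genes tested. The members' median was −0.03, against 0.00 over all genes tested. No gene of the 4 initiation lists (23 partners, 14 eIF3 subunits, 7 start-codon factors, 7 mTORC1 genes) passed, with 0.647 as the lowest adjusted p. Summed microglia markers were 2677 to 3085 FPKM after CUS and 3330 to 7370 FPKM in these controls. Summed markers of 3 other classes were higher after CUS without overlap. Astrocyte markers gave 1869 to 2139 against 520 to 1307 FPKM, and oligodendrocyte markers 1562 to 1906 against 383 to 1239 FPKM. Endothelial markers gave 116 to 189 against 16.4 to 104 FPKM. The astrocyte sum includes Slc1a2, the 1 gene called in this contrast. Slc1a2 had a mean of 9.69 on log2(FPKM + 1) after CUS and 0 in these controls (adjusted p = 1.3e-07). It was listed at 0 in 13 of 22 samples. No other marker of these 3 classes passed, and the astrocyte sum without Slc1a2 was not compared. The part of these shifts was not tested.

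Which controls were used decided the result for Eif4ebp2, Eif4g1 and Eif4a2. Against the 3 short-title males in place of the long-title ones, CUS males were lower in Eif4ebp2 (−2.38, adjusted p = 0.00897), higher in Eif4g1 (1.31, adjusted p = 0.00691) and lower in Eif4a2 (−0.85, adjusted p = 0.0256), beside 16.1% of all genes called. Against all 6 male controls the first 2 differences were −1.30 and 0.66 (adjusted p = 0.641 for each), and against the controls of both sexes −1.56 and 1.08 (adjusted p = 0.127 for each). In the short-title contrast, stress and title kind cannot be told apart. The contrast of title kinds among controls and the CUS contrast share the long-title controls, and side by side they gave −2.16 and −0.22 for Eif4ebp2 and 1.29 and 0.02 for Eif4g1.

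**Figure D4:**
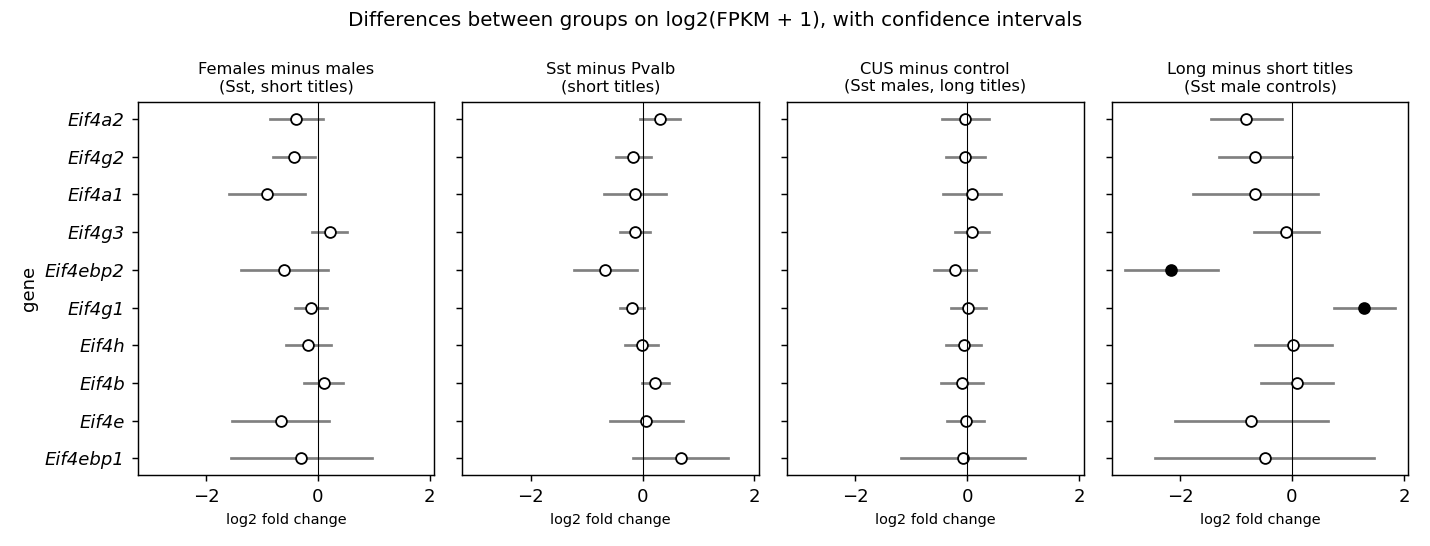
Log2 fold change of each gene on log2(FPKM + 1) in the 4 comparisons, with lines for 95% intervals and filled points for an adjusted p below 0.05. The filled points are Eif4ebp2 (−2.16) and Eif4g1 (1.29) in the panel for title kind, and the CUS panel holds no point beyond −0.22.

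Sst females were compared with the short-title Sst males, the contrast that asks whether the factors differ between the sexes without stress. No member passed the test, beside 3.41% of the 14443 genes tested, and the groups overlapped for all 10, while 9.73% of all genes did not overlap. The difference was below 0 for 8 of 10 members, with a median of −0.34 against 0.05 over all genes tested. Eif4a1 came closest, at 65.8 ± 13.2 FPKM in 7 females and 142 ± 97.5 in 3 males (−0.91, SE 0.31, adjusted p = 0.111). Eif4g2 followed at 82.6 ± 9.77 and 112 ± 22.2 FPKM (−0.43, SE 0.17, adjusted p = 0.158). Eif4e differed by −0.67 (SE 0.40, adjusted p = 0.318), Eif4ebp2 by −0.60 (SE 0.36, adjusted p = 0.311) and Eif4ebp1 by −0.29 (SE 0.58, adjusted p = 0.777).

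These sex differences leaned on 1 male sample. Without the averaged SST0-M and SST1-M the difference was 0.064 for Eif4e, 0.64 for Eif4ebp1, 0.054 for Eif4h, −0.24 for Eif4ebp2 and −0.39 for Eif4a1, so the first 3 changed sign. Counting SST0-M and SST1-M as separate samples brought 2 members past the threshold, Eif4a1 (−1.17, adjusted p = 0.0299) and Eif4g2 (−0.50, adjusted p = 0.0434), beside 17.7% of all genes. Against the 3 long-title males in place of the short-title ones, Eif4ebp2 was higher in females (1.55, adjusted p = 0.00169) and Eif4g1 lower (−1.42, adjusted p = 2.7e-06), a contrast that called 41.5% of all genes and in which sex and title kind cannot be told apart. The Eif4ebp2 difference between the sexes therefore had opposite signs with the 2 kinds of male control. Summed microglia markers were 3612 to 6449 FPKM in females and 5783 to 9568 in short-title males, and their part was not tested.

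Of the 51 other initiation genes, 1 (1.96%) passed between the sexes, beside 3.41% of all genes. Mknk1 encodes a kinase that phosphorylates eIF4E on the eIF4G scaffold, and it fell to 20.9 to 31.2 FPKM in females from 34.7 to 54.1 FPKM in males (−0.74, SE 0.18, adjusted p = 0.0490). This call stayed in 2 of the 10 fits that left out 1 sample, which called 100 to 1787 genes in all. It was lost with quantile normalization (−0.49, adjusted p = 0.108) and with the replicate block (−0.93, adjusted p = 0.229). The block called only 11 of 14286 genes. The call was also lost narrowly with a common median, without a filter or with a pseudocount of 5 (adjusted p = 0.0501 to 0.0550). The other 22 partners, all 14 eIF3 subunits, all 7 start-codon factors (7 of 7 below 0) and all 7 mTORC1 genes did not pass.

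Sst controls of both sexes were compared with Pvalb males within the short titles, to ask whether the subtypes differ. The defining markers did not both follow the labels. Pvalb was lower in Sst samples (means of 0.37 and 1.77 on log2(FPKM + 1), adjusted p = 0.00845), but Sst too had a lower mean in Sst samples (2.91 against 4.54, a difference of −1.62, adjusted p = 0.0876). No member passed the test, beside 10.2% of the 14483 genes tested, and the groups overlapped for all 10 members where 1.44% of all genes did not overlap. Eif4ebp2 had the lowest adjusted p, at 48.7 ± 22.2 FPKM in 10 Sst samples and 74.2 ± 20.7 in 6 Pvalb samples (−0.67, SE 0.27, adjusted p = 0.116). Eif4ebp1 leaned the other way at 8.31 ± 8.25 and 4.08 ± 2.24 FPKM (0.68, SE 0.40, adjusted p = 0.284). Eif4b (0.23, SE 0.11, adjusted p = 0.207), Eif4g1 (−0.19, SE 0.10, adjusted p = 0.226) and Eif4a2 (0.31, SE 0.17, adjusted p = 0.253) came next, and Eif4e differed by 0.07 (SE 0.31, interval −0.59 to 0.72). The members' median was −0.07, against 0.01 over all genes tested.

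The Eif4ebp2 difference between subtypes depended on which samples stood for each. It passed the test without the averaged SST0-M and SST1-M (−0.79, adjusted p = 0.0284, with 18.1% of all genes called) and with female Sst controls alone (−0.85, adjusted p = 0.0267, with 25.1% called), the latter a contrast in which subtype cannot be told apart from the labelled sex, with the Xist values of the Pvalb libraries given above. With short-title Sst males alone it was −0.24 (adjusted p = 0.726, with 13 of 14253 genes called). Without the 3 Pvalb samples with high Xist, where Eif4ebp2 stood at 84.1 to 93.7 FPKM, it was −0.38 (adjusted p = 0.663) and Eif4e moved from 0.07 to −0.46. That fit called 9 of 14467 genes. Excitatory neuron markers summed to 25.3 and 25.4 FPKM in the averaged Pvalb pair and to 464 to 529 FPKM in the other Pvalb libraries, against 43.9 to 237 FPKM in the short-title Sst libraries, and microglia markers to 7558 to 9551 FPKM in Pvalb libraries, whose parts were not tested apart from the fit with microglia markers as a covariate (Eif4ebp2 −0.21, adjusted p = 0.957). The fit with this covariate called 1 of 14483 genes. In bulk samples fewer cells of a type and less RNA per cell cannot be told apart.

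Of the 51 other initiation genes, 4 (7.84%) were lower in Sst than in Pvalb samples and none was higher, a share below the 10.2% of all genes called. Of the 23 partners 2 fell: Mknk1 (20.9 to 54.1 against 39.2 to 56.1 FPKM, −0.66, adjusted p = 0.0298) and Cyfip2, whose product belongs to the WAVE complex and is a paralog of the eIF4E partner CYFIP1 (−1.36, adjusted p = 0.0367). Of the 7 mTORC1 genes 2 fell: Rptor, the scaffold that presents 4E-BPs to mTOR (−0.73, adjusted p = 0.0186), and Akt1s1, which encodes the inhibitory subunit PRAS40 (−1.13, adjusted p = 0.0357). No eIF3 subunit of 14 and no start-codon factor of 7 passed. With 1 sample left out, Rptor stayed past the threshold in 13 of 16 fits, Mknk1 in 7, Akt1s1 in 6 and Cyfip2 in 5. Those fits called 554 to 2883 genes in all. Against short-title Sst males alone none of the 4 passed, with differences of −0.14 for Mknk1, −1.22 for Cyfip2, −0.47 for Rptor and −1.29 for Akt1s1. That fit called only 13 of 14253 genes. None passed without the high-Xist Pvalb samples (adjusted p = 0.135 to 0.425), a fit that called only 9 of 14467 genes. None passed with the microglia covariate, where Rptor was −0.32, Mknk1 −0.21, Akt1s1 −1.06 and Cyfip2 0.14 (adjusted p = 0.769 to 0.979). The covariate fit called only 1 of 14483 genes, so these losses are not particular to the 4 genes. With the replicate block Rptor (adjusted p = 0.0514) and Mknk1 (adjusted p = 0.0705) did not pass. With all Sst controls Rptor, Mknk1 and Akt1s1 did not pass (adjusted p = 0.0724 to 0.435).

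Over the 22 samples some members varied together. The strongest Pearson correlations of log2(FPKM + 1) were 0.84 between Eif4ebp2 and Eif4g2, 0.82 between Eif4e and Eif4a1, and −0.80 between Eif4ebp2 and Eif4g1. These samples share title kinds and groups, the averaged Sst pair stands at the end of several of these ranges, and the coefficients are given as descriptions.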

How the data were processed

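The deposited values are FPKM, given by the authors per gene symbol (23993 symbols) and library (24). The Methods name trimming, HISAT2 on mm10 and StringTie, after a sentence with TopHat2 on mm9, and the submitters' processing notes name mm10, TopHat2, Cufflinks and Cuffdiff. The authors also used ComBat and eliminated outlying samples; whether ComBat touched the deposited values is not stated. Counts were not used here, so the depth is unknown and the authors' DESeq2 test was not repeated.

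Near-identical libraries (those whose log2 ratios over genes above 5 FPKM spread less than 10% as much as the second closest pair of the group) were averaged. Genes with a mean above 0.4 FPKM in the samples compared were tested on log2(FPKM + 1) with limma 3.58.1 in R 4.3.3 (eBayes, trend and robust). Tests were two-sided, p-values were adjusted by Benjamini-Hochberg over every tested gene, and genes below 0.05 were called. Fold changes are on that scale, which understates low genes. The procedure was tested on simulated data. Python 3.11.15 was used for the rest. All 10 members were found in RefSeq (GRCm38.p6), and 8 had a promoter entry.

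Of the initiation lists the text names genes past the threshold, at most the 4 with the lowest adjusted p per comparison. The members and lists were chosen with earlier results of these data known. Samples were grouped by labels and title kind. Alternatives were the pseudocount, the filter, the scaling, a fit over all samples, other controls, a replicate block, a microglia covariate and leaving out each sample. One interneuron marker is not reported here.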

Additional observations from a re-analysis of the deposited data

Results flagged for a closer look

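In 20 combinations of a member with a group of 6 or 7 samples, 3 had a sample far from the others by Dixon's criterion on the log2(FPKM + 1) scale, where chance marks about 1 in 20. Eif4a1 was at 95.0 FPKM in SST-F, and the next highest female was at 64.3 FPKM. In Pvalb males the averaged PV0-M and PV2-M stood at 135 FPKM for Eif4a1, with 85.6 FPKM next, and at 139 FPKM for Eif4g2, with 103 FPKM next. Groups of 3 samples, among them the short-title males, cannot be checked in this way.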

How the results depend on the processing

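Of 972 values of single genes under the alternatives (49 gene and comparison pairs), 802 kept their direction and their side of the threshold. A further 13 newly passed it, 95 no longer passed it and 62 changed direction. The 95 come only from pairs called in the main fit, while pairs not called count among the 802 when they stay uncalled. Values that changed direction were counted only as such, even when they passed. Eif4ebp2 for sex against long-title males was 1 of these (1.55, adjusted p = 0.00169). Under both pseudocounts, both other scalings and no filter, Eif4ebp2 and Eif4g1 passed between title kinds and no other member passed in any comparison. The cause of the changes below was not tested. Depth is unknown, so what it limits could not be judged, and with 3 samples a group a fit without 1 of them leaves 2.

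Numbers of genes called were 493 for sex, 1478 for subtype, 1 for CUS and 585 for title kind. With 1 fit over all samples they were 1175, 2702, 3 and 3544, with 1 member called for sex (Eif4a1), 1 for subtype (Eif4ebp2) and 4 for title kind. With every library as its own sample they were 2549 for sex, with 2 members, and 1769 for title kind, with 3 (Eif4a2 added). No filter gave 381 and quantile normalization 1110 for title kind, and short-title controls of both sexes, chosen after seeing the data, 3805. For sex, all male controls gave 1699 and long-title males 6032, with 2 members. For subtype, female Sst controls gave 3638 with 1 member, short-title Sst males 13, samples without high Xist 9 and the microglia covariate 1. For CUS, controls of both sexes gave 6 and short-title males 2309, with 3 members. Title numbers did not pair samples (correlations of deviations from −0.05 to 0.12), and the replicate block, which kept 3 against 3 samples for sex and 9 against 6 for subtype, gave 11 and 1190 calls and no member.

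Leaving out 1 sample gave 100 (without SST3-M) to 1787 (without SST-F) calls for sex, 554 (without PV4-M) to 2883 (without the averaged Pvalb pair) with 0 to 1 members for subtype, 1 to 16 (without SS04031R) for CUS, and 54 (without SST040241L) to 1962 (without the averaged Sst pair) with 0 to 2 members for title kind. Members whose sign changed with 1 sample left out were, for sex, Eif4e (−1.14 to 0.064), Eif4ebp1 (−0.94 to 0.64) and Eif4h (−0.39 to 0.054); for title kind, Eif4b (−0.049 to 0.25), Eif4e (−1.21 to 0.0018), Eif4ebp1 (−1.13 to 0.45) and Eif4h (−0.19 to 0.26). For subtype they were Eif4e (−0.15 to 0.23) and Eif4h (−0.093 to 0.046). For CUS they were Eif4a1 (−0.073 to 0.31), Eif4a2 (−0.12 to 0.11), Eif4b (−0.19 to 0.039), Eif4e (−0.081 to 0.056), Eif4ebp1 (−0.33 to 0.45), Eif4g1 (−0.013 to 0.049) and Eif4g2 (−0.088 to 0.058).

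Other changes of sign for sex were those against all male controls for Eif4a2 (0.021) and Eif4ebp2 (0.47), against long-title males for Eif4a2 (0.43), Eif4e (0.062), Eif4ebp1 (0.19), Eif4ebp2 (1.55) and Eif4g2 (0.23), and with quantile normalization for Eif4a2 (0.020), Eif4g1 (0.067) and Eif4h (0.090). For subtype they were, with all Sst controls, Eif4g1 (0.12) and Eif4h (0.019), with short-title Sst males Eif4a1 (0.51), Eif4g2 (0.13) and Eif4h (0.11), with females Eif4e (−0.13), without the high-Xist samples Eif4e (−0.46) and Eif4g3 (0.068), with the microglia covariate Cyfip2 (0.14), Eif4a2 (−0.16), Eif4e (−0.51) and Eif4h (0.057), with quantile normalization Eif4h (0.036), and with every library Eif4h (0.093). For CUS they were, against all males, Eif4a1 (−0.24), against short-title males Eif4a1 (−0.57) and Eif4g3 (−0.022), against both sexes Eif4g3 (−0.11) and Eif4h (0.048), and with quantile normalization Eif4a2 (0.049) and Eif4g2 (0.035). For title kind they were Eif4g3 with quantile normalization (0.16) and Eif4h with every library (−0.087).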

Other observations

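Over the 22 samples, the genes most like Eif4e, Eif4ebp1 and Eif4ebp2 were sought among the 9422 genes with a mean above 5 FPKM, by Pearson correlation of log2(FPKM + 1). Eif4ebp2 was most like Rnasek (0.96), Egln1, an oxygen-sensing prolyl hydroxylase (0.96), and Rab11b, a GTPase of recycling endosomes (0.96). Eif4e was most like Gmfb (0.93), Zbtb24 (0.91) and Rbm43 (0.90). Eif4ebp1 was most like Rnf219 (0.86), Itm2c (0.84) and Bst2, an interferon-induced membrane protein (0.79). The samples share title kinds and groups, and no test was made on these coefficients.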
